A study of Homo sapiens with 6 samples.

Results

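The TMTC genes (TMTC1, TMTC2, TMTC3 and TMTC4) encode the transmembrane O-mannosyltransferases with tetratricopeptide repeats, and their mRNA was followed in CWR-R1 prostate cancer cells with and without SOX2. The 4 genes were taken by family name from a deposited table of 16949 genes, and all 4 were among the 15927 genes tested. The family was selected on the measured fall of TMTC1 between SOX2-KO and Control. The TMTC1 values are therefore a description and carry no test, while TMTC2, TMTC3 and TMTC4 came in by name and were tested. The comparison asks whether another member of the family was higher where TMTC1 was lost.

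CWR-R1 is an established human cell line of castration-resistant prostate cancer. Bulk RNA was sequenced from 3 libraries of a SOX2 knockout of this line, labelled SOX2 negative and named SOX2-KO here, and from 3 libraries of the SOX2-positive line, titled untreated and named Control. The labels do not give the method of the knockout, its number of clones or the origin of the replicates. The p-values therefore measure only how far these libraries spread, and that spread may be technical. A difference that belongs to the derived line itself cannot be told apart from one that follows the loss of SOX2.

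The TMTC enzymes sit in the membrane of the endoplasmic reticulum. They transfer mannose from dolichol phosphate mannose to serine and threonine residues in the extracellular domains of cadherins and protocadherins. This pathway is separate from that of POMT1 and POMT2, which begin the sugar chain of alpha-dystroglycan. TMTC3 is mutated in a human brain malformation with cobblestone lissencephaly, TMTC2 in humans and TMTC4 in mice have been linked to hearing loss, and TMTC1 and TMTC2 have been reported in cultured cells to bind the endoplasmic reticulum calcium pump SERCA2.

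The genes lie on GRCh38 as annotated by GENCODE 29. TMTC1 (ENSG00000133687) is on chromosome 12, positions 29500840 to 29784759 on the minus strand. TMTC2 (ENSG00000179104) and TMTC3 (ENSG00000139324) are on the long arm of the same chromosome, at 82686880 to 83134870 and 88142296 to 88199887, both on the plus strand. TMTC4 (ENSG00000125247) is on chromosome 13, positions 100603927 to 100675093 on the minus strand. No other annotated gene shares exonic bases with any of the 4. An antisense gene, AC009320.1, lies within the TMTC1 locus without exonic overlap and is not among the rows used here. Of all 31-base words in the annotated TMTC transcripts, read on the transcript strand only, 0 occur in more than 1 TMTC gene. Words shared with genes outside the family made up 0.701% for TMTC1, 1.28% for TMTC4 and 0% for TMTC2 and TMTC3. The paralogs are therefore separable by such words on the transcript strand. Matches to the opposite strand were not searched, and strand use of the libraries is not given.

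The start regions of TMTC1 and TMTC2 are shown because these are the members with the clearest falls, and because TMTC1 has a pair of start sites which the gene-level table does not separate. Each run is the 250 bases just before a start site annotated by RefSeq on GRCh38.p14, 5′ to 3′ on the gene's own strand, with CpG dinucleotides in capitals.
TMTC1 upstream start, chr12:29784760-29785009, minus strand: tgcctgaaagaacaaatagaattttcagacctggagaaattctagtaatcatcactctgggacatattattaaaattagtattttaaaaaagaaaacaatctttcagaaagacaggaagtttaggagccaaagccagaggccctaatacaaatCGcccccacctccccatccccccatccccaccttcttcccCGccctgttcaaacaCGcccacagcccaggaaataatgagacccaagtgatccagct
TMTC1 downstream start, chr12:29783943-29784192, minus strand: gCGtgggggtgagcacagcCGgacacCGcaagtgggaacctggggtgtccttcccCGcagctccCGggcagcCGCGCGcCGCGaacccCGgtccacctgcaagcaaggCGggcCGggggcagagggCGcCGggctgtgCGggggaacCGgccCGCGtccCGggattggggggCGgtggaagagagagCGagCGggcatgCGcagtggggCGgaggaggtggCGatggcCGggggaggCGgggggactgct
TMTC2 start, chr12:82686656-82686905, plus strand: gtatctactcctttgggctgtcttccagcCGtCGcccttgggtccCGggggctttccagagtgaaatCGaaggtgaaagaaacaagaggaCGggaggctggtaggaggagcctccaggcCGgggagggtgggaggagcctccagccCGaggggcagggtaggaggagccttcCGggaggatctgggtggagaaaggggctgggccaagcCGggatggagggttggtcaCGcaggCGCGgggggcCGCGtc

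The TMTC1 start regions differ in composition. The upstream window had 3 CpG and 44% G plus C, and the downstream window, which lies inside the gene but outside its annotated exons, had 28 CpG and 76.4% G plus C. TMTC2 had 14 CpG and 66.4% G plus C. Over 35116 RefSeq windows of this length the median was 58% G plus C. The words ACAAAG and ACAATG, the usual core of a SOX binding site, were searched on both strands, and matches of these words cannot overlap one another. They occurred in 0 of the 5 windows of the 4 TMTC genes and in 21.2% of all windows, which says only that these letters are not in these windows.

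SOX2 itself checked the labels. It had 4.70, 4.56 and 3.83 CPM in SOX2-KO replicates 1, 2 and 3, against 55.7, 54.3 and 55.5 CPM in Control replicates 1, 2 and 3 (log2 difference −3.39). CPM is a count scaled to the library's total over the genes listed. All 8 prostate epithelial markers were present, with summed levels of 4214 to 4450 CPM in SOX2-KO and 3814 to 3882 CPM in Control. Of 6 stromal markers, COL1A1 and LUM were listed, with sums of 2.54 to 3.34 CPM in SOX2-KO and 7.28 to 8.30 CPM in Control. The endothelial marker VWF was at 19.9 to 21.2 CPM in SOX2-KO and 2.96 to 4.08 CPM in Control. The other stromal and endothelial markers are not among the rows used here, and the part of such cells in the results was not tested. SOX2-KO replicate 3 stood apart from its group in mitochondrial transcripts, with 3.44% of its CPM, against 1.87% and 1.68% in SOX2-KO replicates 1 and 2 and 3.23% to 3.45% in Control.

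TMTC1 was nearly lost in SOX2-KO. Its level was 4.16, 4.58 and 4.40 CPM in SOX2-KO replicates 1, 2 and 3, against 120.1, 121.1 and 120.5 CPM in Control replicates 1, 2 and 3. These correspond to about 91.3 to 113 estimated reads per SOX2-KO library and 2497 to 3066 per Control library. The groups are far apart and each is tight. The mean was 4.38 ± 0.213 CPM in SOX2-KO and 120.6 ± 0.479 CPM in Control (SD, n = 3 each). The SOX2-KO level was 3.63% of the Control level, or 27.5-fold lower. On the log2(CPM + 1) scale, which understates changes of low genes, the difference was −4.50, and 2 of the 15927 genes tested had a lower value. In bulk RNA, fewer cells that express a gene and less RNA per cell cannot be told apart. The SOX2-KO level remained well above the 0.117 to 0.145 CPM that 3 reads represent, so a signal assigned to TMTC1 was measured in every knockout library. Whether words shared with genes outside the family (0.701% of those of TMTC1) contributed to it was not tested.

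**Figure D1:**
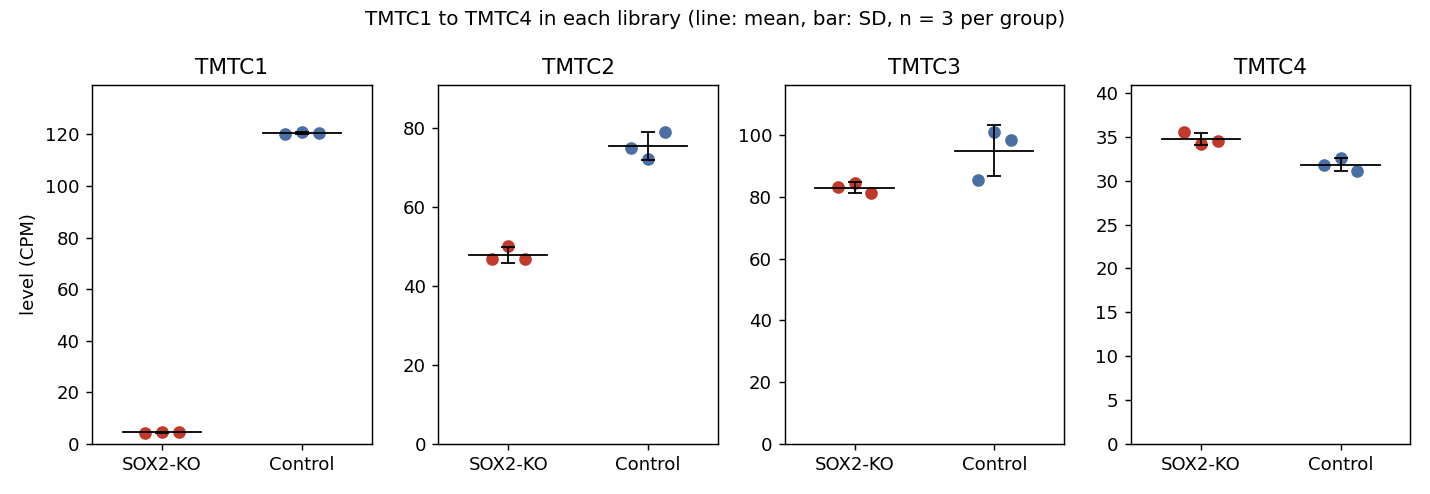
Level of each TMTC gene in CPM (vertical axes start at 0 and differ between panels) in the SOX2-KO and Control libraries, each point being a library, the line the mean and the bar the SD. TMTC1 sits near the bottom of its panel in all 3 SOX2-KO libraries, and TMTC2 is lower. TMTC3 is slightly lower and TMTC4 slightly higher in SOX2-KO. The groups do not overlap in any of the panels.

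TMTC2 fell as well, by a much smaller factor. It had 46.7, 50.02 and 46.7 CPM in SOX2-KO replicates 1, 2 and 3, against 74.9, 72.1 and 79.1 CPM in Control replicates 1, 2 and 3. All 3 SOX2-KO values lay below all 3 Control values. The mean was 47.8 ± 1.91 CPM in SOX2-KO and 75.4 ± 3.52 CPM in Control (SD, n = 3 each), or 63.5% of the Control level. The log2 difference was −0.64 ± 0.05 (standard error), with a 95% interval from −0.76 to −0.53 (limma adjusted p = 1.07e-05). For comparison, 32.9% of all genes tested were called lower and 25% higher at an adjusted p under 0.05, and the groups did not overlap in 64.5% of genes (36.3% with SOX2-KO lower, 28.2% with SOX2-KO higher), so a call by itself is common in this comparison. The balance of calls depends on the scaling, with 4575 genes higher and 4505 lower under median-ratio scaling and 4670 higher and 4498 lower under quantile normalisation, against 3976 higher and 5234 lower on the deposited scale. TMTC2 kept its call with every alternative scaling, filter and left-out library that was tried, with log2 differences from −0.68 to −0.48.

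TMTC3, the member with the highest level per kilobase in SOX2-KO, was slightly lower there. It had 83.3, 84.6 and 81.2 CPM in SOX2-KO replicates 1, 2 and 3, against 85.6, 101.2 and 98.4 CPM in Control replicates 1, 2 and 3. The groups did not overlap, but Control replicate 1 lay only just above the highest SOX2-KO library. The mean was 83.1 ± 1.70 CPM in SOX2-KO and 95.1 ± 8.27 CPM in Control (SD, n = 3 each), or 87.4% of the Control level. The log2 difference was −0.19 ± 0.06, with a 95% interval from −0.33 to −0.05 (limma adjusted p = 0.0275). The call ended without SOX2-KO replicate 3 (adjusted p = 0.0702), without Control replicate 2 (0.107) and without Control replicate 3 (0.0937), and also with median-ratio scaling (0.123) and quantile normalisation (0.0788). The adjusted p ran from 0.00161 to 0.591 over the alternatives.

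TMTC4 had the lowest level per kilobase of the family in Control and was not called. It had 35.6, 34.2 and 34.5 CPM in SOX2-KO replicates 1, 2 and 3, against 31.8, 32.6 and 31.1 CPM in Control replicates 1, 2 and 3. All 3 SOX2-KO values lay above the Control values, by a small margin. The mean was 34.8 ± 0.721 CPM in SOX2-KO and 31.8 ± 0.748 CPM in Control (SD, n = 3 each), or 109% of the Control level. The log2 difference was 0.13 ± 0.05, with a 95% interval, not adjusted for the number of genes, from 0.01 to 0.24 (limma adjusted p = 0.0592). It was called higher with median-ratio scaling (log2 difference 0.18, adjusted p = 0.0178) and with quantile normalisation (0.20, adjusted p = 0.00876). The adjusted p ran from 8.11e-05 to 0.166 over the alternatives. Without SOX2-KO replicate 3, the library with the higher mitochondrial share, the log2 differences were −4.50 for TMTC1, −0.63 for TMTC2, −0.17 for TMTC3 and 0.13 for TMTC4.

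Levels of different genes were set side by side as CPM per kilobase of merged exons. In SOX2-KO the order was TMTC3 at 11.3 ± 0.232, TMTC2 at 5.75 ± 0.229, TMTC4 at 5.55 ± 0.115 and TMTC1 at 0.299 ± 0.0145 CPM per kilobase. With this length TMTC2 and TMTC4 overlapped in SOX2-KO and do not differ beyond their spread. With coding lengths they did not overlap there, with TMTC2 at 19.07 ± 0.761 and TMTC4 at 15.25 ± 0.316 CPM per kilobase in SOX2-KO. In Control the order was TMTC3 at 12.97 ± 1.129, TMTC2 at 9.05 ± 0.423, TMTC1 at 8.24 ± 0.0327 and TMTC4 at 5.07 ± 0.119 CPM per kilobase (SD, n = 3 each). The order in Control depends on the length used, because the merged exons of TMTC1 span 14636 bases and its longest coding sequence 2832 bases. Per kilobase of coding sequence TMTC1 came to the top in Control, at 42.6 ± 0.169, ahead of TMTC3 at 34.7 ± 3.02, TMTC2 at 30.05 ± 1.402 and TMTC4 at 13.95 ± 0.328 CPM per kilobase. With either length TMTC1 was last in SOX2-KO. Among 12863 protein-coding genes tested, the TMTC1 level per kilobase of merged exons was at percentile 4.52 in SOX2-KO and at percentile 57.4 in Control.

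The gain of TMTC4 was small beside the loss of TMTC1. Per kilobase of merged exons TMTC4 differed by 0.473 CPM per kilobase, which is 5.96% of the TMTC1 loss of 7.94 CPM per kilobase, or 3.17% with coding lengths. TMTC2 and TMTC3 were lower together by 62.3% of the size of the TMTC1 loss with merged exons and 37.4% with coding lengths. The summed level of TMTC2, TMTC3 and TMTC4 was 22.6 ± 0.402 CPM per kilobase in SOX2-KO and 27.1 ± 1.17 CPM per kilobase in Control. The sum over all 4 genes was 22.9, 23.3 and 22.5 CPM per kilobase in SOX2-KO replicates 1, 2 and 3, against 34.0, 35.9 and 36.1 CPM per kilobase in Control replicates 1, 2 and 3. All 3 SOX2-KO sums lay below the Control sums. The SOX2-KO sum was 64.9% of the Control sum with merged exons, 54.6% with coding lengths and 52.7% in plain CPM. No member was higher by an amount near the TMTC1 loss in the mRNA measured here.

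The make-up of the family changed with the loss of TMTC1. TMTC1 made up 1.31% of the summed level per kilobase of merged exons in SOX2-KO and 23.3% in Control. TMTC3 made up 49.4% in SOX2-KO and 36.7% in Control, and TMTC4 24.2% in SOX2-KO and 14.4% in Control, although TMTC3 was not higher in SOX2-KO. The TMTC2 share was 25.1% in SOX2-KO and 25.6% in Control. The shares depend on the length used. With coding lengths TMTC2 made up 28.8% in SOX2-KO and 24.8% in Control, and TMTC1 2.34% in SOX2-KO and 35.1% in Control. A share rises when another member falls, so these shares are not separate evidence of a rise.

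**Figure D2:**
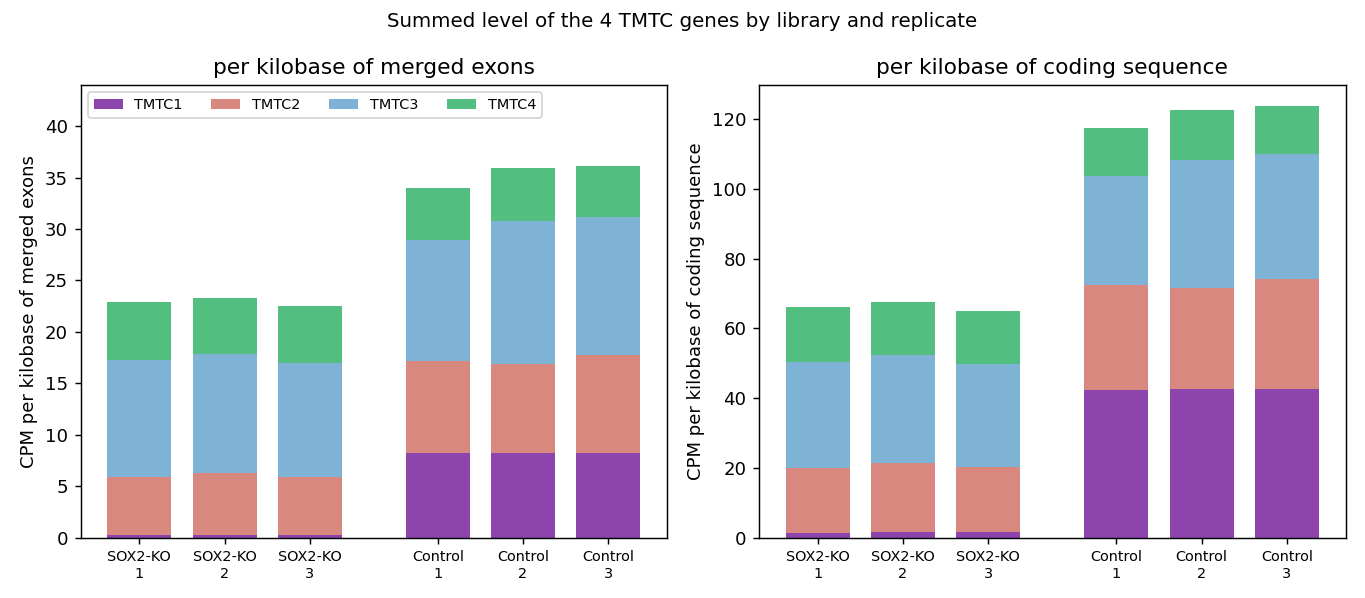
Stacked levels of the TMTC genes in each library, SOX2-KO on the left and Control on the right of each panel, as CPM per kilobase of merged exons (left panel) and of coding sequence (right panel). The TMTC1 segment nearly disappears in SOX2-KO, the other segments do not grow to fill its place, and the summed SOX2-KO level is 64.9% of Control with merged exons and 54.6% with coding lengths.

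The chromosomal surroundings differed between the members. Within 5 Mb of TMTC1, 48 other genes were tested, with a median log2 difference of −0.12 against −0.06 over all genes. Of these 5 were called higher and 18 lower (10.4% and 37.5%, against 25% and 32.9% of all genes tested), and all 48 lay above TMTC1, the lowest at −1.31. The nearest protein-coding genes were ERGIC2, at 92.97 ± 3.10 CPM in SOX2-KO and 101 ± 4.59 CPM in Control (limma adjusted p = 0.0523), and the importin gene IPO8, which rose to 180.1 ± 10.4 CPM in SOX2-KO, against 128 ± 3.39 CPM in Control (limma adjusted p = 3.76e-05). ERGIC2 was called lower without SOX2-KO replicate 1 (adjusted p = 0.0434), without Control replicate 1 (0.0315), without mitochondrial transcripts (0.0277) and with a minimum mean of 5 CPM (0.0463).

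The surroundings of TMTC2 and TMTC3 had medians near that of their chromosome. Within 5 Mb of TMTC2 the median log2 difference of 16 genes was −0.19, with 3 called higher and 6 lower, and within 5 Mb of TMTC3 that of 20 genes was −0.13, with 4 higher and 9 lower. The share called lower was 37.5% around TMTC2 and 45% around TMTC3, against 32.9% of all genes tested and 47.4% of the 820 genes on chromosome 12, whose median was −0.18. Within 2 Mb of TMTC2, where 5 genes were tested, the median turned to 0.20. Around TMTC2, METTL25 was at 6.52 ± 0.455 CPM in SOX2-KO and 5.32 ± 0.270 CPM in Control (limma adjusted p = 0.0592), a value that was called without SOX2-KO replicate 1 (0.0499), with median-ratio scaling (0.0277) and with quantile normalisation (0.0226). On its other side the amino acid transporter gene SLC6A15 rose to 34.3 ± 1.803 CPM in SOX2-KO, against 29.6 ± 0.996 CPM in Control (limma adjusted p = 0.0154, and 0.0532 without Control replicate 3). Next to TMTC3, the cilium gene CEP290 was at 60.3 ± 2.53 CPM in SOX2-KO and 59.4 ± 0.699 CPM in Control (limma adjusted p = 0.752). The gene of the KIT ligand, KITLG, fell to 88.2 ± 2.68 CPM in SOX2-KO, against 209 ± 10.3 CPM in Control (limma adjusted p = 2.25e-07). With the median deviation of the neighbours subtracted, TMTC2 was still called lower (log2 difference −0.48, adjusted p = 4.25e-04), and TMTC3 was not (−0.032, adjusted p = 0.591).

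TMTC4 stood above a region that was lower as a whole. Within 5 Mb the median log2 difference of 27 genes was −0.39, with 1 called higher and 17 lower (63% lower, against 32.9% of all genes tested), and 26 of the 27 lay below TMTC4. On the whole of chromosome 13 the median of 256 genes was −0.30, and 236 of them lay below TMTC4. The neighbours named by the same rule were both lower. GGACT was at 10.7 ± 1.35 CPM in SOX2-KO and 14.5 ± 2.12 CPM in Control (limma adjusted p = 0.0246), a call that ended without SOX2-KO replicate 1 (0.0719), Control replicate 1 (0.0885) or Control replicate 2 (0.0894). The peptidase gene TPP2 fell to 63.4 ± 2.61 CPM in SOX2-KO, against 87.5 ± 3.01 CPM in Control (limma adjusted p = 4.54e-05). With the neighbours' median deviation subtracted, TMTC4 was called higher (log2 difference 0.48, adjusted p = 8.11e-05).

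**Figure D3:**
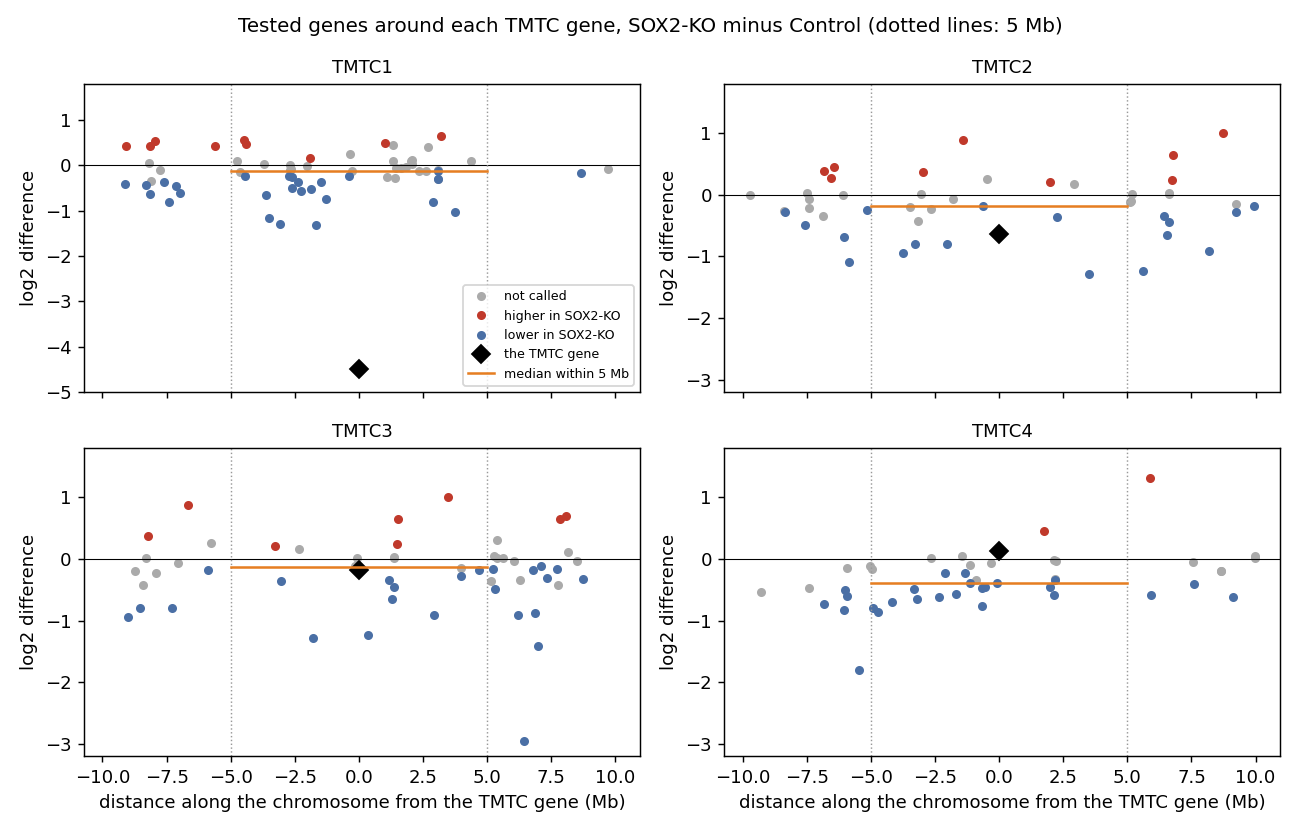
Log2 difference (SOX2-KO minus Control, on the log2(CPM + 1) scale) of tested genes against their distance in Mb from each TMTC gene, which is the black diamond, with the median within 5 Mb as an orange line. TMTC1 lies far below all of its neighbours, TMTC2 and TMTC3 lie within the range of theirs, and TMTC4 lies above 26 of 27 neighbours within 5 Mb.

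The profile most like that of TMTC1 over the 6 libraries was that of MLPH, the melanophilin gene of vesicle transport. Likeness was measured as the Euclidean distance between log2(CPM + 1) profiles, each centred on its own mean, and is a description over genes with large falls. MLPH was at a distance of 0.327, with 5.01, 5.89 and 7.24 CPM in SOX2-KO replicates 1, 2 and 3, against 175, 160.4 and 168 CPM in Control replicates 1, 2 and 3. The next were the ephrin receptor gene EPHB3 (distance 0.895), the desmosome gene PKP1 (1.06), the monoamine oxidase gene MAOA (1.08) and ARMCX3 (1.13). None of these lies on chromosome 12.

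The other genes of protein O-mannosylation moved both ways. Of 5 genes listed and tested, 2 rose and 2 fell, with a median log2 difference of −0.15 (over all genes tested, 25% rose and 32.9% fell, here and for the lists that follow). POMT2 rose to 37.4 ± 1.56 CPM in SOX2-KO, against 30.6 ± 1.5 CPM in Control (limma adjusted p = 0.00315), while its partner POMT1 fell to 24.0 ± 2.02 CPM in SOX2-KO, against 28.1 ± 1.22 CPM in Control (limma adjusted p = 0.0305). TMEM260, the O-mannosyltransferase of plexins and of the receptors MET and RON, was at 34.7 ± 3.19 CPM in SOX2-KO and 38.4 ± 1.58 CPM in Control (limma adjusted p = 0.113). SDF2 and SDF2L1 are proteins of the endoplasmic reticulum that share a domain with the POMT enzymes and are not known as transferases. SDF2 rose to 22.4 ± 1.48 CPM in SOX2-KO, against 19.2 ± 1.17 CPM in Control (limma adjusted p = 0.0387), and SDF2L1 fell to 22.8 ± 2.29 CPM in SOX2-KO, against 33.6 ± 2.78 CPM in Control (limma adjusted p = 6.54e-04). The POMT1 call ended without SOX2-KO replicate 1 (adjusted p = 0.0781), Control replicate 1 (0.0968) or Control replicate 2 (0.0644), with the replicate block (0.0640), with median-ratio scaling (0.0704) and with quantile normalisation (0.105). That of SDF2 ended without SOX2-KO replicate 2 (0.136), SOX2-KO replicate 3 (0.0597), Control replicate 1 (0.0669) or Control replicate 3 (0.133) and without mitochondrial transcripts (0.05002), and TMEM260 was called lower without SOX2-KO replicate 3 (0.0303).

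Genes that supply the mannose donor moved both ways. Of 14 genes, 3 rose and 7 fell, with a median log2 difference of −0.15, against 25% and 32.9% of all genes. With median-ratio scaling 4 rose and 5 fell, and with quantile normalisation 4 rose and 4 fell. GMPPB, which makes GDP-mannose, fell to 54.0 ± 4.92 CPM in SOX2-KO, against 100.4 ± 3.45 CPM in Control (limma adjusted p = 7.38e-06). DOLPP1, which recycles the dolichol carrier, fell to 25.02 ± 1.44 CPM in SOX2-KO, against 39.5 ± 0.507 CPM in Control (limma adjusted p = 2.14e-05). DPM3, a subunit of dolichol phosphate mannose synthase, rose to 11.9 ± 0.847 CPM in SOX2-KO, against 8.95 ± 0.729 CPM in Control (limma adjusted p = 0.00725). MPDU1, needed for the use of the donor, rose to 61.03 ± 1.33 CPM in SOX2-KO, against 53.4 ± 3.18 CPM in Control (limma adjusted p = 0.0129, and 0.0531 without Control replicate 3). NUS1, a subunit of the enzyme that makes the dolichol chain, was at 148.5 ± 4.35 CPM in SOX2-KO and 138 ± 6.37 CPM in Control, and the phosphomannomutase gene PMM1 at 33.4 ± 1.58 CPM in SOX2-KO and 36.5 ± 1.30 CPM in Control, without a call. NUS1 was called higher with median-ratio scaling (adjusted p = 0.0255) and with quantile normalisation (0.03).

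Enzymes that use the same donor for other products did not move as a block. Of 11 genes, 2 rose and 4 fell, with a median log2 difference of −0.01, and the share that fell is near the 32.9% of all genes. With median-ratio scaling and with quantile normalisation 4 rose and 3 fell. The C-mannosyltransferase genes DPY19L3 and DPY19L1 fell, to 37.4 ± 1.43 CPM in SOX2-KO against 52.8 ± 1.70 CPM in Control for DPY19L3, and to 33.4 ± 3.11 CPM in SOX2-KO against 42.5 ± 1.29 CPM in Control for DPY19L1 (limma adjusted p = 4.98e-05 and 0.00253). PIGM and PIGV, which add mannose to the anchor of GPI-linked proteins, rose to 45.2 ± 2.21 CPM in SOX2-KO against 36.8 ± 1.61 CPM in Control, and to 23.6 ± 1.10 CPM in SOX2-KO against 19.4 ± 0.660 CPM in Control (limma adjusted p = 0.00213 and 0.00601). ALG9, of N-glycan assembly, was at 61.9 ± 3.218 CPM in SOX2-KO and 62.2 ± 2.82 CPM in Control. DPY19L4 was at 55.2 ± 0.967 CPM in SOX2-KO and 50.7 ± 2.73 CPM in Control without a call (limma adjusted p = 0.0684), and was called higher without Control replicate 2 (0.0457), with median-ratio scaling (0.0226) and with quantile normalisation (0.0153).

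Of 13 genes of alpha-dystroglycan and the extension of its sugar chain, 6 rose and 5 fell, with a median log2 difference of 0.02. DAG1, which encodes dystroglycan, rose to 185 ± 8.37 CPM in SOX2-KO, against 143 ± 2.37 CPM in Control (limma adjusted p = 8.86e-05), and the glucuronyltransferase gene B4GAT1 to 20.8 ± 0.794 CPM in SOX2-KO, against 11.7 ± 0.406 CPM in Control (limma adjusted p = 1.97e-05). LARGE2, which builds the terminal repeat, fell to 9.01 ± 0.961 CPM in SOX2-KO, against 20.7 ± 2.06 CPM in Control (limma adjusted p = 2.19e-05).

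Cadherins and protocadherins, the acceptors of TMTC mannose, included more falls than rises, as did the whole table on the deposited scale. Of 35 genes listed, 16 were tested, of which 2 rose and 9 fell (25% and 32.9% of all genes), with a median log2 difference of −0.35 against −0.06 over all genes. With median-ratio scaling and with quantile normalisation 2 rose and 9 fell as well. With a minimum mean of 5 CPM fewer of these genes were tested, and 2 rose and 7 fell. CDH2 and CDH23, called lower in the main fit, lie below that minimum and were not tested there. CDH6 fell to 3.72 ± 0.385 CPM in SOX2-KO, against 15.1 ± 0.800 CPM in Control (limma adjusted p = 1.64e-06), and PCDH1 to 20.9 ± 1.66 CPM in SOX2-KO, against 38.2 ± 0.818 CPM in Control (limma adjusted p = 9.76e-06). CDH1, the E-cadherin gene, had the highest CPM of the acceptors tested and was named after its value was seen. CDH1 fell to 589 ± 26.3 CPM in SOX2-KO, against 694 ± 13.3 CPM in Control (limma adjusted p = 0.0016). That rank is without length and does not hold per kilobase of merged exons, which span 6.177 kilobases for CDH1 and 3.748 for CDH24. CDH24 fell to 363 ± 26.0 CPM in SOX2-KO, against 470 ± 30.9 CPM in Control (limma adjusted p = 9.95e-04). The P-cadherin gene CDH3 rose to 30.1 ± 2.78 CPM in SOX2-KO, against 18.0 ± 0.937 CPM in Control (limma adjusted p = 7.21e-05). CDH7 was at 16.3 ± 2.16 CPM in SOX2-KO and 13.2 ± 0.725 CPM in Control (limma adjusted p = 0.041), a call that ended without SOX2-KO replicate 1 (0.116) or any Control library (0.0664, 0.0714 and 0.126 without Control replicates 1, 2 and 3). PCDH7 was at 68.1 ± 5.37 CPM in SOX2-KO and 70.5 ± 1.81 CPM in Control. PCDH20 was at 53.2 ± 2.38 CPM in SOX2-KO and 59.6 ± 4.89 CPM in Control, uncalled (limma adjusted p = 0.0644) but called lower without SOX2-KO replicate 1 (0.0424), Control replicate 1 (0.0126) or mitochondrial transcripts (0.0443).

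Genes of calcium handling and lectin chaperones in the endoplasmic reticulum were read because of the reported binding of TMTC1 and TMTC2 to the calcium pump. Of 17 listed, 16 were tested, 3 rose and 6 fell, with a median log2 difference of −0.10. The share that fell is near the 32.9% of all genes, and 25% of all genes rose. ATP2A2, the gene of that pump, named after its value was seen, fell to 580 ± 22.1 CPM in SOX2-KO, against 829 ± 6.44 CPM in Control (limma adjusted p = 1.14e-05). HSPA5, the chaperone BiP, fell to 291 ± 15.9 CPM in SOX2-KO, against 605 ± 19.7 CPM in Control (limma adjusted p = 5.96e-07). ITPR2, an inositol trisphosphate receptor gene that lies within 5 Mb of TMTC1, fell to 35.5 ± 4.74 CPM in SOX2-KO, against 87.6 ± 1.147 CPM in Control (limma adjusted p = 3.1e-06). The calcium sensor gene STIM2 rose to 202 ± 1.36 CPM in SOX2-KO, against 116 ± 6.44 CPM in Control (limma adjusted p = 1.75e-06), and its regulator SARAF to 200.03 ± 9.87 CPM in SOX2-KO, against 175 ± 1.94 CPM in Control (limma adjusted p = 0.0048). The chaperone genes CANX and CALR were not called, at 491 ± 20.7 and 565 ± 78.1 CPM in SOX2-KO and 480.4 ± 23.7 and 601 ± 14.4 CPM in Control, though CALR was called lower without SOX2-KO replicate 1 (adjusted p = 0.00237).

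**Figure D4:**
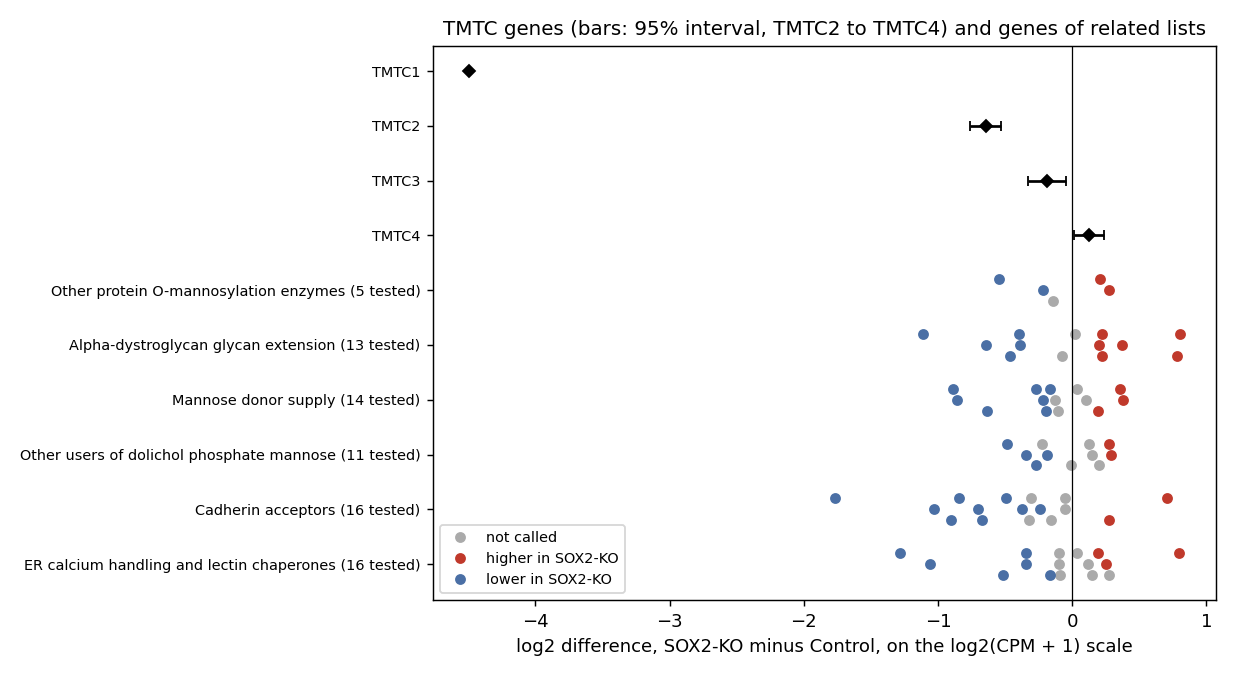
Log2 difference, SOX2-KO minus Control, on the log2(CPM + 1) scale for TMTC1 to TMTC4 (black diamonds, with 95% intervals for TMTC2 to TMTC4) and for tested genes of the related lists (points, coloured by call). TMTC1 at −4.50 lies far to the left of every related gene, the lowest of which is CDH6 at −1.77, and the list members lie on both sides of 0.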

How the data were processed

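RNA of 6 libraries was deposited by the authors as CPM in 1 table, with 16949 genes, each column scaled to its own total. Per the submitters' processing notes the tools included kallisto 0.43.1, edgeR 3.22.2, Trimmomatic 0.38, STAR and CASAVA 1.8, and the builds hg38 and GRCh38.p12, without saying which tool made the table. Strand use and the choice of genes are not given there. From 25.8% to 28.2% of the values above 0 per library were whole multiples of a fixed step within 0.001 of a read, and the step gave 20717792 to 25739760 estimated reads per library. The other values were fractional, so no count model was used. The floor of 3 reads covers counting error only, while the 95% intervals of log2 differences come from the fit.

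GENCODE 29 held 16010 of the identifiers and gave names, coordinates and lengths. Limma 3.58.1 in R 4.3.3, with a trended prior and group as the only term, was fitted to log2(CPM + 1) for the 15927 genes whose mean reached 1 CPM, with Benjamini-Hochberg adjustment over all of them and calls at an adjusted p under 0.05. The fit was also run on simulated data in which few genes changed, unlike these data, so that run does not bear on the scaling of these libraries. Values of named genes are mean CPM ± SD with n = 3 per group. The members and the lists were chosen with earlier results of these data known. Named genes are the 4 members, SOX2, from each list up to 2 called higher, 2 called lower (smallest p) and 2 not called (highest mean), all 5 genes of the O-mannosylation list, the nearest protein-coding gene (by midpoint) on each side of a member, and the 5 protein-coding genes most like TMTC1; some genes that this rule or the marker lists name are not reported here. Alternatives were smaller pseudocounts (0.1 and 0.5), the unfiltered table, a minimum mean of 5 CPM, quantile normalisation, median-ratio scaling, rescaling without mitochondrial transcripts, the replicate number as a block, subtraction of the neighbours' median deviation within 5 Mb, other lengths and windows, and leaving out each library.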

Additional observations from a re-analysis of the deposited data

How the results depend on the processing

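The TMTC2 fall kept its direction and call under all 15 alternatives (log2 difference −0.68 to −0.48). TMTC3 kept its direction, but its call ended with median-ratio scaling (−0.13), quantile normalisation (−0.15) and the neighbours' deviation subtracted (−0.032), and ran from −0.26 to −0.14 with each library left out. TMTC4 was higher throughout and became called with median-ratio scaling (0.18), quantile normalisation (0.20) and the neighbours' deviation subtracted (0.48), and ran from 0.11 to 0.14 with each library left out. The median of all genes was −0.0566 as deposited, −0.00392 with median-ratio scaling and 0.00466 with quantile normalisation. The cause of these changes was not tested.

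The size of the TMTC1 fall was −4.75 and −4.63 with pseudocounts of 0.1 and 0.5 CPM, −4.44 with quantile normalisation and −4.36 with the neighbours' deviation subtracted, and −4.53 to −4.47 with each library left out. SOX2 gave −3.64 and −3.52 with the smaller pseudocounts and −3.44 to −3.32 with each library left out. The summed SOX2-KO level was 64.9% of Control with merged exons, 54.6% with coding lengths, 52.7% in plain CPM and 63.6% to 65.6% with each library left out. The median around TMTC1 was −0.093 within 2 Mb, and that around TMTC2 turned to 0.20 within 2 Mb, where 5 genes were tested.

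The O-mannosylation genes called higher went to 1 without mitochondrial transcripts and were 1 to 2 with each library left out. Those called lower went to 1 with quantile normalisation, the replicate block and median-ratio scaling, and were 1 to 3 with each library left out. Donor supply genes called lower went to 4 with quantile normalisation, where 4 were called higher, other donor users called higher to 4 under either of these rescalings (median-ratio or quantile), and cadherins called higher were 1 to 2 with each library left out. Of 45 other named genes, 32 kept their side of the threshold in every alternative run on them, and no called value changed sign.

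The replicate numbers did not pair the libraries: correlations of same-numbered deviations were −0.0446, 0.0383 and −0.0135, and 2 of 6 libraries correlated best with their own number. With the replicate block the adjusted p was 2.02e-04 for TMTC2, 0.0323 for TMTC3 and 0.111 for TMTC4 (limma), with no change of call among these. Depth limits the lowest values only: TMTC1 in SOX2-KO rests on about 91.3 to 113 estimated reads per library.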
